A study of Mus musculus with 18 samples.

Results

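The question here was whether the p53 label of a feeder layer acted differently on gene expression when embryonic stem (ES) cells grew on that layer than when the feeders grew alone. For each gene, the co-culture effect is the log2 level in ES cells on p53-defective feeders minus that in ES cells on control feeders. The feeder effect is the log2 level in p53-defective feeders alone minus that in control feeders alone. The result is the first minus the second, called the difference throughout. It was read over genes that averaged 10 CPM (counts scaled to the size of the library) or more in both kinds of feeders alone, and 8603 of the 19630 genes in the deposited table met that rule, which uses the levels in feeders and no co-culture value. All RNA was from mouse cells, and each group had 3 libraries: ES cells on p53-defective feeders, ES cells on control feeders, p53-defective feeders alone, and control feeders alone. Feeders are labelled as embryonic fibroblasts and co-cultures as ES cells and embryonic fibroblasts together, with no added agent named, and the labels do not say how p53 was made defective or from which line or animal the cells came. A pair of further groups served here only as a measure of expression in ES cells. In the first, ES cells grew on control feeders, which were then taken away. In the second, the integrin α5β1 inhibitor ATN161 took the place of feeders. The series title names p53, pluripotency and the binding of fibronectin by integrins as its subject.

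Feeder fibroblasts support ES cells by secreting matrix proteins, growth factors and cytokines, and by offering a surface to which the stem cells attach. The transcription factor p53 halts the cell cycle and induces genes of arrest, repair and cell death, and its loss in fibroblasts is known for releasing the brakes on division. In a mixed culture each RNA level is a sum over both cell types, so a gene can differ between co-cultures through either one.

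Library totals in the 12 libraries compared lay between 15.12 M and 19.34 M counts. Replicates of a group correlated at 0.9892 or higher across genes, and nothing in the labels says whether they came from separate cultures, so p-values measure the spread between these libraries, which may be technical. The 18 ES cell markers, among them Pou5f1, Sox2 and Zfp42, summed to 371 to 515 CPM per library on p53-defective feeders and 4285 to 4452 CPM on control feeders. In feeders alone they summed to 63.4 to 74.6 CPM with the p53-defective label and 23.4 to 25.7 CPM with the control label, with Pou5f1, Zfp42, Utf1, Tdgf1, Sall4, Tdh and Fgf4 at 0 counts in both. The 24 fibroblast markers summed to 25669.7 to 30903 CPM in the p53-defective co-cultures, 7738 to 8158 CPM in the control co-cultures, 7352 to 10796 CPM in p53-defective feeders alone and 37869 to 45374 CPM in control feeders alone. The ES marker sum was thus lower, and the fibroblast marker sum higher, in the p53-defective than in the control co-cultures, with no overlap between libraries. Fibroblast markers summed to 4973 to 5369 CPM in ES cells with feeders taken away and 1251 to 1389 CPM in the ATN161 group. The first of these groups thus kept fibroblast marker signal, and whether feeders remained in it was not tested. Both are called ES cells without feeders below, after their labels, and every ratio to ES cells carries this limit. The fibroblast marker sum of the p53-defective co-cultures also lay above those of p53-defective feeders alone and of both ES groups, with no overlap. The cause was not tested. A different share of a cell type in the culture and a different RNA level per cell cannot be told apart in these bulk samples, and this holds for every value below.

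For most genes the co-culture effect was called different from the feeder effect. RNA in a co-culture adds up over cell types, so a called difference does not by itself mean a different effect of p53. The difference was called for 7071 of the 8603 genes (82.2%) at an adjusted p below 0.05 from edgeR's quasi-likelihood test with Benjamini-Hochberg adjustment over all 15389 genes tested, of which 73.6% were called. It was positive, with a larger or less negative co-culture effect, in 3761 genes (43.7%, against 38.8% of all genes tested) and negative in 3310 (38.5%, against 34.8%). At 2-fold or more it was positive in 1994 (23.2%, against 25.7%) and negative in 1723 (20%, against 22.9%), so past that size the shares lay below those of all genes. A gene is called positive or negative below where it passed that test. The counts by gene list below are to be read beside these shares of 38.8% positive and 34.8% negative over all genes tested. The 6786 tested genes outside the rule, which are low in at least 1 kind of feeder, were called in 62.7% of cases. The difference had a median of 0.08 over the 8603 genes and 0.04 over all genes tested, with 5% of the 8603 below -2.04 and 5% above 2.29.

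Of the patterns counted here, opposite signs held the most genes. Genes with the same sign are counted only where the difference was called, and are divided by which effect was larger, so this order depends on the scheme. In 2810 genes (32.7%, against 26.6% of all genes tested) both effects were called with opposite signs: 1436 were higher in the p53-defective co-culture and lower in p53-defective feeders alone, and 1374 the reverse. Of all genes tested, 83.4% had a called co-culture effect and 74.3% a called feeder effect. In 1476 of the 8603 genes the co-culture effect alone was called, in 922 the feeder effect alone, in 1127 both had the same sign with the co-culture effect larger, and in 706 both had the same sign with it smaller. In 1532 genes (17.8%) the difference was not called. Across the 8603 genes the 2 effects, which share no library, had a Pearson r of 0.053 and a Spearman rho of 0.000807, given as a description, since genes are not independent. The SD over genes was 1.08 for the co-culture effect and 0.873 for the feeder effect (log2).

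**Figure D1:**
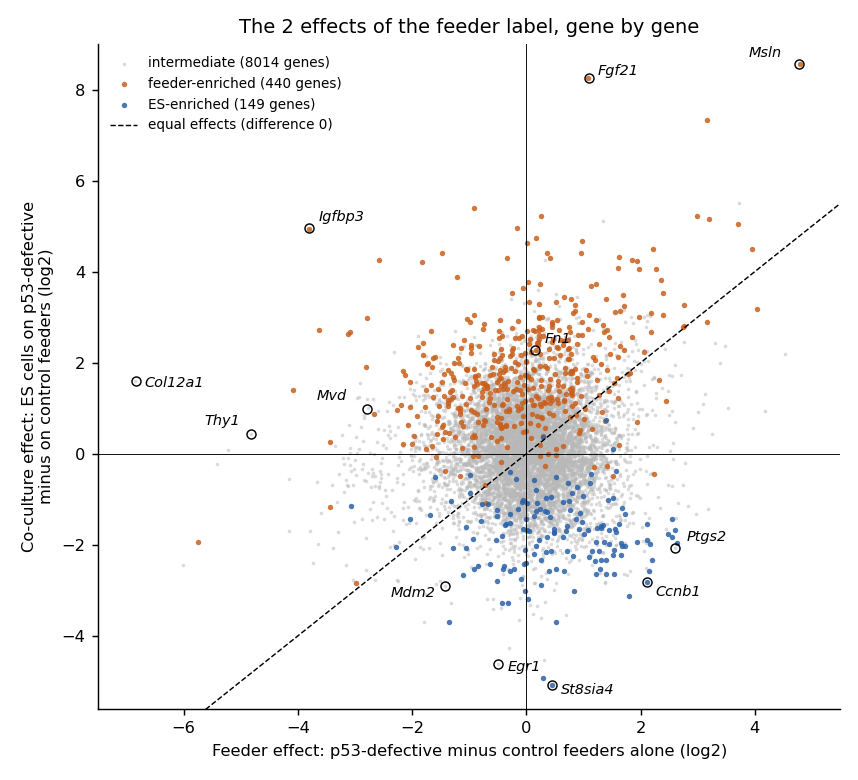
Co-culture effect (vertical axis, log2) against feeder effect (horizontal axis, log2) for the 8603 genes, with the dashed line where both are equal. Genes at least 4-fold higher in feeders alone than in ES cells without feeders (440, orange) lie mostly above the line, and genes at least 4-fold higher in ES cells (149, blue) mostly below it, while Igfbp3 and Col12a1 stand in the upper left, with effects of opposite sign.

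The sign of the difference varied with where a gene was expressed. Of 440 feeder-enriched genes, defined as averaging at least 4-fold more in feeders alone than in the higher of the groups of ES cells without feeders, 388 had a positive difference and 16 a negative one, with a median of 1.84. Their median co-culture effect was 1.70 and their median feeder effect -0.01. Of 149 ES-enriched genes, which exceeded feeders alone at least 4-fold in each of these ES groups, 139 had a negative difference and 6 a positive one, with a median of -2.30. The 8014 genes between these limits were divided into 3367 positive and 3155 negative, with a median of 0.04. Within opposite-sign genes, 165 feeder-enriched genes were higher in the p53-defective co-culture and 0 were lower, and 87 ES-enriched genes were lower and 0 higher. In steps of 1 log2 unit of the feeder-over-ES ratio, the median difference was -2.11 below -2, then -0.83, -0.21, 0.35, 1.0 and 1.77, and 2.20 at 3 or more. Limits of 2-fold and 8-fold gave 1276 positive against 154 negative and 104 against 1 among feeder-enriched genes, and 59 against 733 and 0 against 23 among ES-enriched genes. Among feeder-enriched genes alone the effects had a Pearson r of 0.39 and a Spearman rho of 0.326. The marker sums above move with this pattern, and their part in it was not tested.

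**Figure D2:**
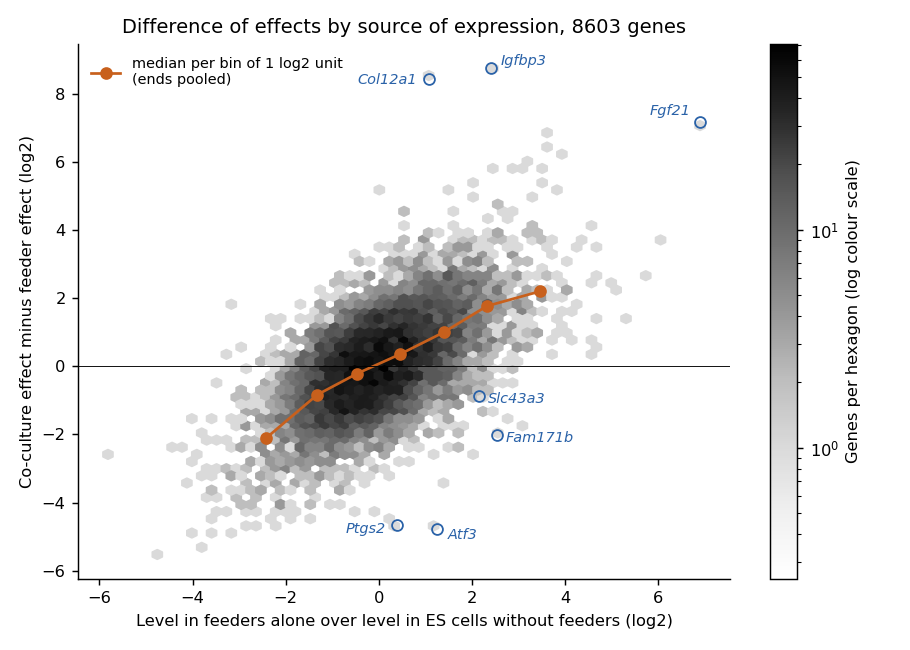
Difference (co-culture effect minus feeder effect, log2) against the log2 ratio of the level in feeders alone to that in ES cells without feeders, for 8603 genes. Shading is the number of genes per hexagon and orange points are medians per step, which climb from -2.11 to 2.20; Atf3, Ptgs2, Fam171b and Slc43a3 lie below their step's median, Igfbp3, Col12a1 and Fgf21 far above it.

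The counts depended on which genes were taken as the baseline. Scaling libraries on the 440 feeder-enriched genes instead of all genes gave a median difference over all genes of -1.83, and scaling on the 149 ES-enriched genes, an alternative added after seeing the data, gave 2.33, against 0.04 as reported. With the feeder-gene scaling 485 genes were called positive and 7477 negative, and with the ES-gene scaling 8126 positive and 208 negative. On all 3 scalings 485 genes (5.64%, against 8.56% of all genes tested) were positive, 169 of them feeder-enriched and 316 intermediate, and 208 (2.42%, against 5.76%) were negative, 62 of them ES-enriched and 146 intermediate. These genes, called in 1 direction on each of these 3 baselines, are marked as such below. They are the same genes as those positive with the feeder-gene scaling and those negative with the ES-gene scaling, so the other scalings add no condition. Both baselines were chosen from these same data, and the 169 and 62 marked genes belong to the baseline they are scaled on. Each group of genes is given with its median difference on the main, the feeder-gene and the ES-gene scaling. The median co-culture effect over all genes moved too, to -1.88 with the feeder-gene scaling and 1.53 with the ES-gene scaling, against -0.18 as reported. Opposite directions were called in 3849 genes with the feeder-gene scaling and 5423 with the ES-gene scaling. Single effects and opposite directions are given below on the main scaling only, so the sign of a co-culture effect can depend on the baseline.

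The secreted factor gene Igfbp3 had the highest difference of the 8603 genes. Igfbp3, which encodes a binding protein that carries insulin-like growth factors outside the cell (NCBI gene 16009, chr11:7206086-7215498 on GRCm38), stood at 747, 825 and 801 CPM in the p53-defective co-cultures, against 25.9, 24.3 and 26.8 CPM in the control co-cultures. Without ES cells, Igfbp3 stood at 45, 53.7 and 34.1 CPM in p53-defective feeders alone, against 621, 690.2 and 542 CPM in control feeders alone. Igfbp3 was thus high on p53-defective feeders with ES cells and low without them, while control feeders showed the reverse, with no overlap between the groups in either setting. It had a co-culture effect of 4.95 ± 0.13, a feeder effect of -3.80 ± 0.12 and a difference of 8.75 ± 0.17 (adjusted p = 3.34e-20), where ± gives the SE of a fitted log2 value here and below. Cxcl12, a chemokine that fibroblasts secrete to hold and attract stem and immune cells, stood at 1243, 1333 and 1163 CPM in the p53-defective co-cultures, against 67.1, 65.1 and 69.6 CPM in the control co-cultures. Without ES cells, Cxcl12 stood at 158, 170.4 and 406 CPM in p53-defective feeders alone, against 802, 818 and 987 CPM in control feeders alone. Replicate 3 of p53-defective feeders lay above the rest of its group but below all libraries of control feeders alone, and Cxcl12 had a co-culture effect of 4.21 ± 0.29, a feeder effect of -1.83 ± 0.26 and a difference of 6.04 ± 0.39 (adjusted p = 1.5e-09), positive on all 3 scalings.

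Of 14 members among genes for insulin-like and other growth factors, their receptors and binding proteins, 11 were positive and 1 negative, with a median of 1.24 on the main scaling, -0.62 on the feeder-gene scaling and 3.52 on the ES-gene scaling, so the sign of the median depends on the scaling. Igfbp6 had a co-culture effect of 4.74 ± 0.12 beside a feeder effect of 0.17 ± 0.10 that was not called, and a difference of 4.57 ± 0.15 (adjusted p = 6.41e-17). Igfbp4 was higher with the p53-defective label in both settings, by 3.10 ± 0.12 in co-culture and 0.81 ± 0.11 in feeders alone. Pdgfrb, a receptor for platelet-derived growth factor, stood at 20.9, 23.1 and 30.8 CPM in the p53-defective co-cultures, against 24.3, 24.2 and 21.8 CPM in the control co-cultures. Without ES cells, Pdgfrb stood at 11.9, 15.1 and 18.5 CPM in p53-defective feeders alone, against 552, 591 and 564 CPM in control feeders alone. The feeder effect of -5.23 ± 0.14 had no called counterpart in co-culture, where libraries overlapped and the effect was 0.09 ± 0.13, and the difference was 5.32 ± 0.18. Igfbp3, Igfbp4, Igfbp6 and Pdgfrb were positive on all 3 scalings.

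Fgf21, a fibroblast growth factor family hormone induced by amino acid and mitochondrial stress, was the most feeder-enriched of the genes named here. It stood at 17.2, 15 and 18.2 CPM in the p53-defective co-cultures, against 0.0982, 0.0476 and 0 CPM in the control co-cultures. Without ES cells, Fgf21 stood at 95.6, 103 and 94.2 CPM in p53-defective feeders alone, against 47.3, 53.2 and 37.4 CPM in control feeders alone. Feeders alone exceeded the co-culture with either label. The control co-cultures held 3 counts of Fgf21 in all against 830 in the p53-defective co-cultures, a ratio of 347 after scaling, with a 95% exact interval of 118 to 1687 that covers counting error only. The feeder effect was 1.09 ± 0.10, and the fitted difference of 7.16 ± 0.37 rests on those few counts: it was 8.03 without replicate 1 of the control co-cultures.

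**Figure D3:**
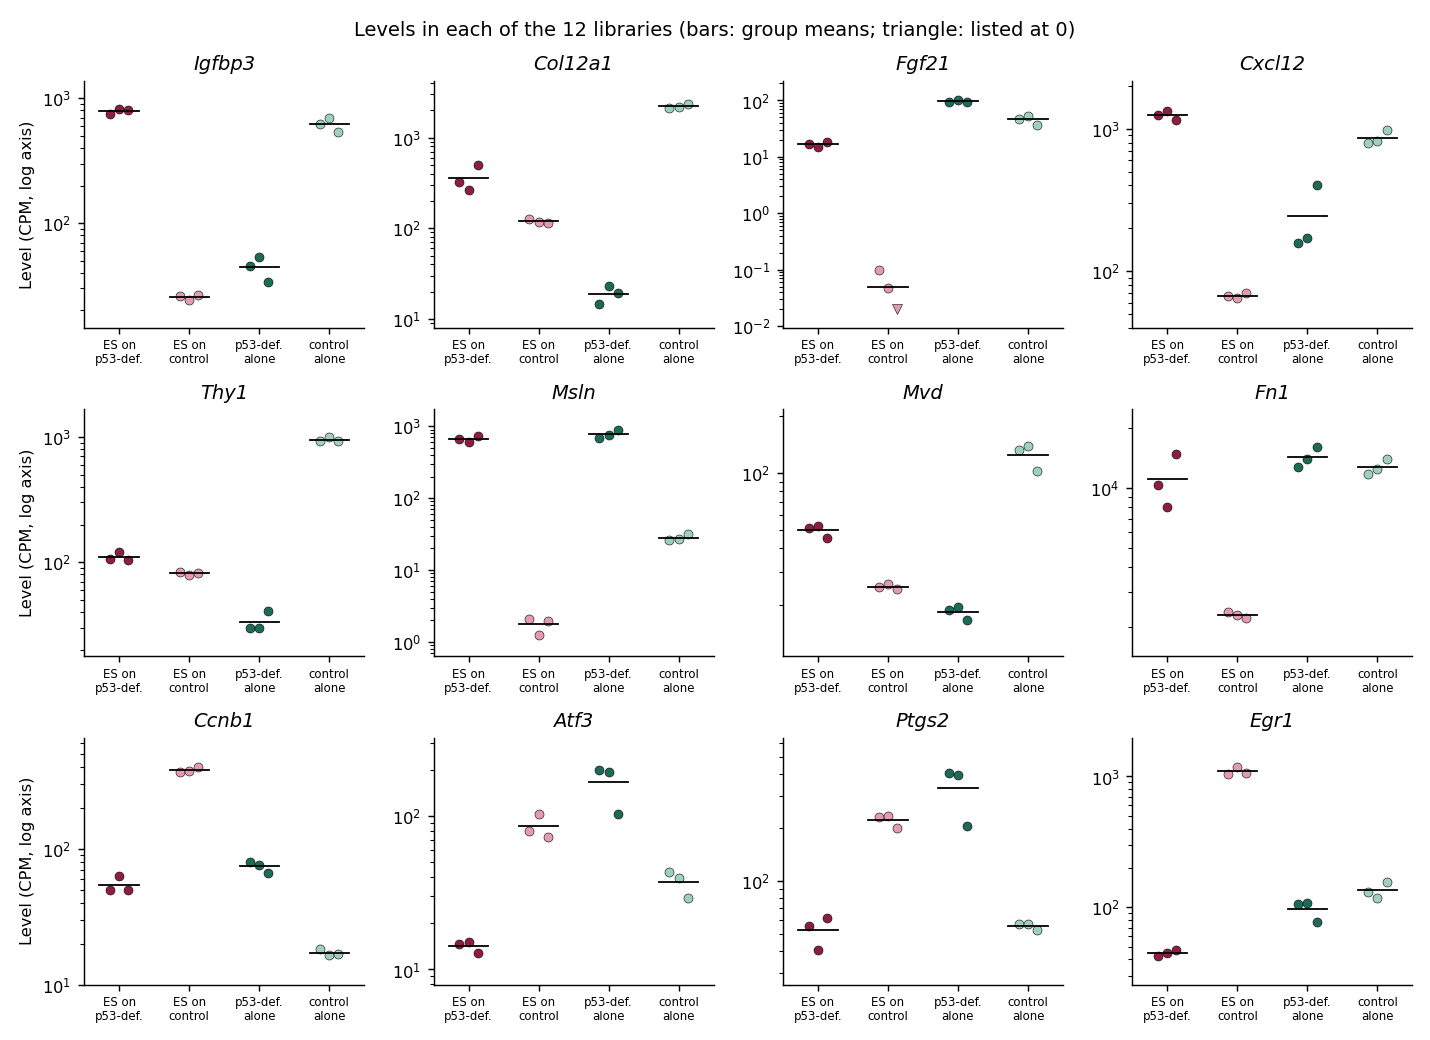
Level in CPM (log axis) of 12 genes in each library of the 4 groups, with bars at the group means and a triangle for 1 library listed at 0. Igfbp3, Cxcl12 and Mvd were higher on p53-defective than on control feeders with ES cells present and lower without them; Ccnb1, Atf3 and Ptgs2 showed the reverse.

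Genes of the extracellular matrix were mostly positive. Of 16 collagen chain genes, 15 were positive and 1 negative, with a median of 2.99 on the main scaling, 1.12 on the feeder-gene scaling and 5.27 on the ES-gene scaling. On the main scaling their median co-culture effect was 1.48 and their median feeder effect -1.74, and 12 had effects called in opposite directions. The difference was positive on all 3 scalings in 14. In feeders alone 15 of the 16 were called lower with the p53-defective label, where 38.4% of all genes tested were, and in co-culture 13 were called higher, where 36.6% of all genes were. Col12a1, a collagen that decorates the surface of fibrils (NCBI gene 12816, chr9:79598987-79721141), stood at 324, 266 and 494 CPM in the p53-defective co-cultures, against 127, 117 and 115 CPM in the control co-cultures. Without ES cells, Col12a1 stood at 14.5, 23.4 and 19.5 CPM in p53-defective feeders alone, against 2105, 2185 and 2328 CPM in control feeders alone. The p53-defective feeders alone thus had the lowest level of the 4 groups and the control feeders alone the highest, and none of the groups overlapped. It had a co-culture effect of 1.59 ± 0.17, a feeder effect of -6.84 ± 0.22 and a difference of 8.44 ± 0.28 (adjusted p = 4.09e-15). Col1a1 and Col1a2 form the main fibril of connective tissue, type I collagen. Col1a1 stood at 7907, 6256 and 10524 CPM in the p53-defective co-cultures, against 1559, 1447 and 1541 CPM in the control co-cultures. Without ES cells, Col1a1 stood at 2204, 2427 and 3169.8 CPM in p53-defective feeders alone, against 8034, 9355 and 9890.2 CPM in control feeders alone, and the difference was 4.25 ± 0.21. Col1a2 had a co-culture effect of 1.90 ± 0.15, a feeder effect of -2.81 ± 0.15 and a difference of 4.71 ± 0.21. Col8a2, a short-chain collagen outside that list, had a difference of 6.30 ± 0.31 and a co-culture effect of 5.39 ± 0.25. The exception was Col18a1, a basement membrane collagen, at -1.55 ± 0.14, which turned to 0.74 with the ES-gene scaling, named after its value was seen.

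Of 22 matrix glycoprotein and crosslinking genes, 21 were positive and 0 negative, with a median of 2.36 on the main scaling, 0.51 on the feeder-gene scaling and 4.64 on the ES-gene scaling, and 12 were positive on all 3 scalings. The gene not called, named after its value was seen, was Efemp1, a fibulin, with 0.24 ± 0.18 (adjusted p = 0.218). Fbln5, which assembles elastic fibres, had a co-culture effect of 1.41 ± 0.07, a feeder effect of -4.09 ± 0.08 and a difference of 5.5 ± 0.10 (adjusted p = 1.51e-20). The small proteoglycan gene Bgn differed by 3.10 ± 0.13, the elastic fibre gene Efemp2 by 3.23 ± 0.12 and the crosslinking enzyme gene Loxl1 by 2.82 ± 0.10. Fibronectin, encoded by Fn1, is the ligand that the series title names. It stood at 10366, 8025 and 14714 CPM in the p53-defective co-cultures, against 2365, 2297 and 2206 CPM in the control co-cultures. Without ES cells, Fn1 stood at 12737, 13954 and 15970.3 CPM in p53-defective feeders alone, against 11683, 12414 and 14002 CPM in control feeders alone. The control co-cultures were thus below the other 3 groups, with no overlap, while the feeder libraries of both labels overlapped. Fn1 had a co-culture effect of 2.27 ± 0.14, a feeder effect of 0.16 ± 0.14 (adjusted p = 0.291) and a difference of 2.11 ± 0.20 (adjusted p = 1.95e-09), which became 0.24 and was not called with the feeder-gene scaling (adjusted p = 0.233).

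Matrix proteases and their inhibitors numbered 20, with 17 positive, 1 negative and 2 not called, a median of 2.16 on the main scaling, 0.30 on the feeder-gene scaling and 4.44 on the ES-gene scaling, and 9 positive on all 3 scalings. Mmp14, a membrane-bound collagenase, stood at 287, 270.3 and 331 CPM in the p53-defective co-cultures, against 441, 426 and 435 CPM in the control co-cultures. Without ES cells, Mmp14 stood at 90.6, 97.2 and 125 CPM in p53-defective feeders alone, against 1754, 1889.6 and 1924 CPM in control feeders alone. Mmp14 was lower with the p53-defective label in both settings, by 0.55 ± 0.10 in co-culture and by 4.15 ± 0.11 in feeders alone, which leaves a difference of 3.60 ± 0.14. The metalloprotease inhibitor Timp1 had opposite effects, 1.39 ± 0.08 in co-culture and -1.62 ± 0.09 in feeders alone. Timp3, another inhibitor, was higher with the p53-defective label in both, by 4.68 ± 0.12 and 0.97 ± 0.10. Adamts2, the protease that trims procollagen, had a difference of 5.75 ± 0.19. Basement membrane genes showed no common direction: of 9, 3 were positive, 2 negative and 4 not called, with a median of 0.06 on the main scaling, -1.81 on the feeder-gene scaling and 2.35 on the ES-gene scaling. Lama5, a laminin chain, was among the negative ones: it was higher with the p53-defective label in both settings, by 1.10 ± 0.13 in co-culture and 3.10 ± 0.14 in feeders alone, and its difference was -2.0 ± 0.18, which turned to 0.29 with the ES-gene scaling.

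Integrins are the receptors through which cells hold these proteins. Of 8 chains that met the rule, 5 were positive and 2 negative, against 38.8% and 34.8% of all genes tested. Their median was 0.98 on the main scaling, -0.89 on the feeder-gene scaling and 3.26 on the ES-gene scaling. Itga5 and Itgb1 together form the fibronectin receptor. Itga5 stood at 377, 338 and 434 CPM in the p53-defective co-cultures, against 201, 207 and 193 CPM in the control co-cultures. Without ES cells, Itga5 stood at 231, 257 and 289 CPM in p53-defective feeders alone, against 279.8, 307 and 302 CPM in control feeders alone. Its feeder groups overlapped, with an effect of -0.19 ± 0.09 (adjusted p = 0.0445), the co-culture groups did not, with 0.93 ± 0.09, and the difference was 1.13 ± 0.12. Itgb1 stood at 1233, 1031 and 1370.3 CPM in the p53-defective co-cultures, against 531, 522 and 527 CPM in the control co-cultures. Without ES cells, Itgb1 stood at 1312, 1273 and 1343 CPM in p53-defective feeders alone, against 1863, 1954 and 2015 CPM in control feeders alone. Both pairs of groups were separate and ran in opposite directions, with a difference of 1.77 ± 0.11. Itgav, the αv chain, had 0.83 ± 0.17. With the feeder-gene scaling these became -0.74 for Itga5, -0.10 for Itgb1 and -1.05 for Itgav, so the direction for the fibronectin receptors rests on the baseline. Itga7, a laminin-binding chain, did not: it stood at 122, 114 and 158 CPM in the p53-defective co-cultures, against 6.09, 5.67 and 6.86 CPM in the control co-cultures. Without ES cells, Itga7 stood at 19.1, 23.6 and 26.9 CPM in p53-defective feeders alone, against 62.9, 67.9 and 62 CPM in control feeders alone, and its difference of 5.87 ± 0.18 was positive on all 3 scalings. Itga6, a laminin-binding chain of ES cells, was negative on all 3, at -2.75 ± 0.19.

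Inside the cell, 13 of 23 focal adhesion genes were positive and 5 negative, against 38.8% and 34.8% of all genes tested. Their median was 0.35 on the main scaling, -1.52 on the feeder-gene scaling and 2.63 on the ES-gene scaling. Ilk and Parva, which encode partners in 1 complex that links integrins to actin, differed by 2.76 ± 0.11 and 2.74 ± 0.13, and Tgfb1i1, an adaptor of the same sites, by 3.47 ± 0.14. These 3 were the focal adhesion genes positive on all 3 scalings. Actin, SRF and YAP target genes numbered 18, with 12 positive and 5 negative and a median of 1.14 on the main scaling, -0.73 on the feeder-gene scaling and 3.42 on the ES-gene scaling. Cnn2, an actin-binding calponin, had 2.97 ± 0.15 in co-culture and -1.04 ± 0.14 in feeders alone. Tpm4, a tropomyosin, had 2.42 ± 0.08 in co-culture and 0.04 ± 0.07 in feeders alone, where it was not called. Ajuba, an adaptor that binds LATS kinases, was negative, at -1.44 ± 0.10, and turned to 0.83 with the ES-gene scaling.

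All 19 fibroblast markers that met the rule were positive, with a median of 3.5 on the main scaling, 1.64 on the feeder-gene scaling and 5.78 on the ES-gene scaling, and 13 were positive on all 3 scalings. Some are collagen and other matrix genes already counted above, and they share expression in feeders with the markers summed at the start. Thy1, a surface marker of fibroblasts, stood at 107, 119.8 and 105 CPM in the p53-defective co-cultures, against 83.4, 79.6 and 82.5 CPM in the control co-cultures. Without ES cells, Thy1 stood at 29.8, 30.1 and 40.8 CPM in p53-defective feeders alone, against 928, 991 and 919 CPM in control feeders alone. A feeder effect of -4.82 ± 0.11 thus faced a co-culture effect of 0.43 ± 0.10, and the difference was 5.25 ± 0.14. S100a4, a calcium-binding protein of motile fibroblasts, had effects of 2.24 ± 0.10 and -2.32 ± 0.10, and Vim, the intermediate filament of mesenchymal cells, 1.39 ± 0.08 and -1.24 ± 0.08, in co-culture and in feeders alone. Tmem119, Ccdc80, Pmp22 and Olfml3, membrane and secreted proteins in no list used here, had differences of 6.83 ± 0.32, 6.36 ± 0.25, 5.78 ± 0.16 and 5.76 ± 0.12, each with a positive co-culture and a negative feeder effect.

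Msln and Tmem151a, markers of mesothelium, the lining of body cavities, were higher with the p53-defective label in both settings. Msln, which encodes mesothelin, stood at 658, 608 and 733 CPM in the p53-defective co-cultures, against 2.11, 1.24 and 1.95 CPM in the control co-cultures. Without ES cells, Msln stood at 690.2, 755 and 879 CPM in p53-defective feeders alone, against 25.9, 26.8 and 31.7 CPM in control feeders alone. Msln was thus high in every library with the p53-defective label, and among control libraries the co-cultures lay below the feeders alone, with no overlap. It had a co-culture effect of 8.56 ± 0.17, a feeder effect of 4.78 ± 0.13 and a difference of 3.77 ± 0.20 (adjusted p = 1.55e-13). Tmem151a had 7.34 ± 0.15 in co-culture and 3.16 ± 0.11 in feeders alone. Of the 19 mesothelial markers 3 met the rule, and the difference was positive in all 3. In feeders alone 2 of the 3 were called higher and 1 lower with the p53-defective label, and in co-culture 2 were called higher and 0 lower. The list summed to 2738 to 2829 CPM in the p53-defective co-cultures, 163 to 169 CPM in the control co-cultures, 1849 to 2779 CPM in p53-defective feeders alone and 295 to 353 CPM in control feeders alone. No ES cell, macrophage, skeletal muscle or endothelial marker met the rule. The macrophage list summed to at most 196 CPM in any library, the muscle list to at most 106 CPM and the endothelial list to at most 150.3 CPM in the 4 groups compared.

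Genes of cholesterol synthesis, the pathway that turns acetyl-CoA into sterols, shared a positive difference. All 23 were positive, with a median of 2.71 on the main scaling, 0.83 on the feeder-gene scaling and 4.99 on the ES-gene scaling. On the main scaling 14 of these had effects called in opposite directions, higher in the p53-defective co-culture and lower in p53-defective feeders alone. The difference was positive on all 3 scalings in 15. In feeders alone 22 of the 23 were called lower with the p53-defective label, against 38.4% of all genes tested, with a median of -2.19, and in co-culture 15 were called higher and 2 lower, against 36.6% and 46.7%, with a median of 0.64. Hmgcs1, which makes the precursor of mevalonate and was chosen after its values were seen, stood at 145, 129 and 159.8 CPM in the p53-defective co-cultures, against 156, 163 and 159.6 CPM in the control co-cultures. Without ES cells, Hmgcs1 stood at 102, 99.5 and 85.4 CPM in p53-defective feeders alone, against 851, 798 and 652 CPM in control feeders alone. Its co-cultures overlapped, the feeders alone did not, and the difference was 2.86 ± 0.13. Mvd, which decarboxylates mevalonate diphosphate, stood at 50.9, 52.6 and 45.4 CPM in the p53-defective co-cultures, against 24.7, 25.9 and 24.1 CPM in the control co-cultures. Without ES cells, Mvd stood at 18.7, 19.5 and 16.6 CPM in p53-defective feeders alone, against 133, 139.7 and 103 CPM in control feeders alone. For Mvd the control feeders alone thus stood above the other 3 groups, and the co-cultures were separate in the other direction, with a co-culture effect of 0.99 ± 0.10, a feeder effect of -2.78 ± 0.10 and a difference of 3.77 ± 0.14 (adjusted p = 4.35e-16). Acat2, which joins acetyl-CoA units, differed by 3.01 ± 0.14, Fdft1, which makes squalene, by 2.75 ± 0.12, and Sc5d, a late sterol desaturase, by 2.71 ± 0.11. Srebf2, the transcription factor that drives the pathway, had the smallest difference of the list, 0.39 ± 0.11, which became -1.48 with the feeder-gene scaling and -0.02 with library totals; it too was named after its value was seen.

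The promoters of these genes, and those of G2/M genes, share a short element. The letters CCAAT, on either strand, occurred within 250 bases before the start in 15 of the 16 cholesterol synthesis genes and in 14 of the 16 G2/M genes with a promoter in RefSeq (93.8% and 87.5%), against 37.5% of 27025 genes and 41.0% of the 7030 of the 8603 genes with one. A match is a description of the sequence and not a site. Of the 2 groups, which moved in opposite directions, 5 promoters are shown as examples, from RefSeq on GRCm38.p6, 5′ to 3′ along the strand of the gene, ending at the base before the start, with each CCAAT or its reverse complement ATTGG in capitals. Hmgcs1 lies at chr13:119690101-119690350 on the plus strand, and has matches 237, 176 and 45 bases before the start. Mvd lies at chr8:122443423-122443672 and Sc5d at chr9:42264301-42264550, both on the minus strand. Ccnb1 lies at chr13:100786487-100786736 on the minus strand and Bub1b at chr2:118597961-118598210 on the plus strand.
Hmgcs1: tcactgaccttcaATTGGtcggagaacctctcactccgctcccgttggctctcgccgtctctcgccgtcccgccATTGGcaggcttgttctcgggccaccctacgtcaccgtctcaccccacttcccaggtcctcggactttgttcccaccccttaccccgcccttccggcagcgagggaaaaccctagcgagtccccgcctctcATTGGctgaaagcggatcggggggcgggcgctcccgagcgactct
Mvd: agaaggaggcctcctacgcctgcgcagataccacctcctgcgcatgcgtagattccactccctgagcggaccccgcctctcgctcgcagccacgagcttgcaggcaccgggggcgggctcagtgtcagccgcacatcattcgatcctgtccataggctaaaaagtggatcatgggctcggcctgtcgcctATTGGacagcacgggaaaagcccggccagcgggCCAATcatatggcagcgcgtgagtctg
Sc5d: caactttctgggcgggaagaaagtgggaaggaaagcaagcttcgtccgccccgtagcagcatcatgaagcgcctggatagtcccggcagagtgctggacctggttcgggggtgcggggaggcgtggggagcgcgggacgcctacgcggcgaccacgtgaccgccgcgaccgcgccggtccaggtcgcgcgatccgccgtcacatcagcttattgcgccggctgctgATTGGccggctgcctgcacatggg
Ccnb1: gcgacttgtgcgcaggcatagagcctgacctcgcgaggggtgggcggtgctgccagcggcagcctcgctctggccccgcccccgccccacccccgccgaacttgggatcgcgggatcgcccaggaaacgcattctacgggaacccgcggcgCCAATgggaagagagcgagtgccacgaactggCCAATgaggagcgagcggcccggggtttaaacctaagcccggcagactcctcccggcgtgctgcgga
Bub1b: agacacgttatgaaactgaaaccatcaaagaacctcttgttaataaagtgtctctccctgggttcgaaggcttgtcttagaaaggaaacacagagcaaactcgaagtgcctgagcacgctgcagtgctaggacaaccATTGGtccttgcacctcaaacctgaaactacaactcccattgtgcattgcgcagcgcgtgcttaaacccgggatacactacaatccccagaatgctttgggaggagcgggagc
The sterol regulatory element, searched as TCACNCCAC on both strands, was found in 1 of the 16 cholesterol synthesis promoters (6.25%), that of Hmgcs1, against 1.22% of all promoters. TTTGAA, part of the cell cycle homology region, was found in 8 of the 16 G2/M promoters (50%), against 18.3%. The E2F site, searched as TTNNCGC, was found in 5 of the 16 G2/M promoters (31.2%) and 8 of 17 DNA replication promoters (47.1%). Its shares were 19.1% of all promoters and 34.3% of those among the 8603 genes, so the G2/M share lay below the latter.

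Lysosome genes were also mostly lower in p53-defective feeders alone. Of 20, 19 were positive, with a median of 1.76 on the main scaling, -0.11 on the feeder-gene scaling and 4.04 on the ES-gene scaling, so the sign of the median turns with the feeder-gene scaling, and 7 were positive on all 3 scalings. In feeders alone 19 of the 20 were called lower with the p53-defective label, where 38.4% of all genes tested were. Cd63, a tetraspanin of late endosomes and secreted vesicles, stood at 1712, 1845 and 1518 CPM in the p53-defective co-cultures, against 333, 320.0 and 323 CPM in the control co-cultures. Without ES cells, Cd63 stood at 686, 712 and 569.9 CPM in p53-defective feeders alone, against 1334, 1485 and 1368 CPM in control feeders alone. Here both pairs were separate and ran in opposite directions, with a difference of 3.47 ± 0.12. Hexa, a hexosaminidase, differed by 3.02 ± 0.10 and Ctsa, a protective carboxypeptidase, by 2.99 ± 0.12. Ctsd, an aspartyl protease, was lower with the p53-defective label in both settings, by 0.49 ± 0.07 in co-culture and by 2.70 ± 0.07 in feeders alone. Sqstm1, a receptor for autophagy named after its value was seen, was the gene not called, at -0.34 ± 0.18 (adjusted p = 0.0955), and was called negative with library totals, at -0.75.

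Most glycolysis and hypoxia genes were higher with the p53-defective label in both settings. Of 29, 25 had a positive co-culture effect called and 24 a positive feeder effect, against 36.6% and 35.9% of all genes tested, with medians of 2.11 and 0.69. The difference was positive in 21 and negative in 6, with a median of 0.99 on the main scaling, -0.87 on the feeder-gene scaling and 3.27 on the ES-gene scaling, so its sign turns with the feeder-gene scaling, and 3 were positive on all 3. Tpi1, a glycolytic isomerase, stood at 2750.0, 3166 and 2407 CPM in the p53-defective co-cultures, against 367, 336 and 359 CPM in the control co-cultures. Without ES cells, Tpi1 stood at 425, 479 and 467 CPM in p53-defective feeders alone, against 298, 285 and 322 CPM in control feeders alone. The p53-defective label was high in both, with effects of 2.97 ± 0.09 in co-culture and 0.60 ± 0.09 in feeders alone. P4ha2 and Plod1, which hydroxylate collagen, differed by 2.29 ± 0.11 and 3.91 ± 0.13, and Egln1, the oxygen sensor that marks HIF for removal, by 1.79 ± 0.10, which turned to -0.08 with the feeder-gene scaling. On the negative side the furthest were Hk2, the first kinase of glycolysis, at -2.49 ± 0.26, and Slc2a3, a glucose transporter, at -2.46 ± 0.15, both named after their values were seen. Hk2 and Slc2a3 both lost their calls with the ES-gene scaling. ACGTG, the core of the hypoxia response element, was found in 15 of 25 promoters of the list (60%), against 18.5% of all promoters and 27.1% of those among the 8603 genes.

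Genes of cell division had the lowest median of the 29 lists with members. All 20 G2/M genes were negative, all 20 on all 3 scalings, with a median of -3.82 on the main scaling, -5.68 on the feeder-gene scaling and -1.54 on the ES-gene scaling. In feeders alone all 20 were called higher with the p53-defective label, where 35.9% of all genes tested were, with a median of 1.78, and in co-culture all 20 were called lower, with a median of -1.96, where 46.7% of all genes tested were. Ccnb1, the cyclin that starts mitosis (NCBI gene 268697, chr13:100778739-100786486), stood at 49.4, 63.3 and 50 CPM in the p53-defective co-cultures, against 368, 372 and 398 CPM in the control co-cultures. Without ES cells, Ccnb1 stood at 79.7, 76.2 and 66.2 CPM in p53-defective feeders alone, against 18.2, 16.4 and 16.8 CPM in control feeders alone. Control feeders alone were lowest and control co-cultures highest, with the groups carrying the p53-defective label between them. Ccnb1 had a co-culture effect of -2.81 ± 0.09, a feeder effect of 2.11 ± 0.09 and a difference of -4.92 ± 0.13 (adjusted p = 9.09e-19). Bub1b, a spindle checkpoint kinase, stood at 40.8, 44.1 and 44.1 CPM in the p53-defective co-cultures, against 215, 215 and 218 CPM in the control co-cultures. Without ES cells, Bub1b stood at 57.9, 66.4 and 68.7 CPM in p53-defective feeders alone, against 15.2, 12.3 and 14.2 CPM in control feeders alone, and the difference was -4.54 ± 0.12. Kif11, a spindle motor, differed by -4.39 ± 0.11, Top2a, the topoisomerase of dividing cells, by -4.14 ± 0.11, and Tpx2, a spindle assembly factor, by -4.04 ± 0.11. Hmmr and Ect2, which act at the spindle and in cytokinesis, differed by -4.72 ± 0.13 and -4.61 ± 0.13. The G2/M genes had a median feeder-over-ES ratio of -2.65 (log2), so their level was higher in ES cells than in feeders, and the ES marker sum moved with them; its part in the result was not tested.

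Of 21 DNA replication genes, 18 were negative and 3 not called, with a median of -2.27 on the main scaling, -4.14 on the feeder-gene scaling and 0.01 on the ES-gene scaling, and 7 were negative on all 3 scalings. Mcm10, a replication initiation factor outside the list, stood at 13.8, 14.7 and 14.3 CPM in the p53-defective co-cultures, against 122, 127 and 127 CPM in the control co-cultures. Without ES cells, Mcm10 stood at 41.6, 47.2 and 30.7 CPM in p53-defective feeders alone, against 10.8, 12.8 and 10.8 CPM in control feeders alone, and the difference was -4.93 ± 0.16. Pole, the leading strand polymerase, differed by -4.39 ± 0.11, and Mcm5 and Mcm7, subunits of the replicative helicase, by -3.20 ± 0.13 and -2.90 ± 0.10. Cdt1, which loads that helicase, differed by -2.83 ± 0.11. The genes not called, named after their values were seen, were Rfc3, Rrm1 and Ccne2, at -0.29 ± 0.16, -0.11 ± 0.10 and 0.41 ± 0.21; with library totals in place of TMM, Rfc3 and Rrm1 were called negative, at -0.70 and -0.53. Among 14 DNA methylation and polycomb genes, 9 were negative and 3 positive, with a median of -0.87 on the main scaling, -2.74 on the feeder-gene scaling and 1.41 on the ES-gene scaling. Uhrf1, the partner of the maintenance methyltransferase, differed by -3.40 ± 0.14, Ezh2 by -2.83 ± 0.12 and Dnmt1 by -2.32 ± 0.12. The call for Dnmt1 was lost with the ES-gene scaling. St8sia4, a polysialyltransferase gene high in ES cells, had the lowest difference among the genes named, -5.52 ± 0.19. It stood at 7.94, 10.1 and 11.4 CPM in the p53-defective co-cultures, against 323, 281 and 391 CPM in the control co-cultures. Without ES cells, St8sia4 stood at 21.1, 22.5 and 22.4 CPM in p53-defective feeders alone, against 15.4, 17.2 and 15.8 CPM in control feeders alone.

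**Figure D4:**
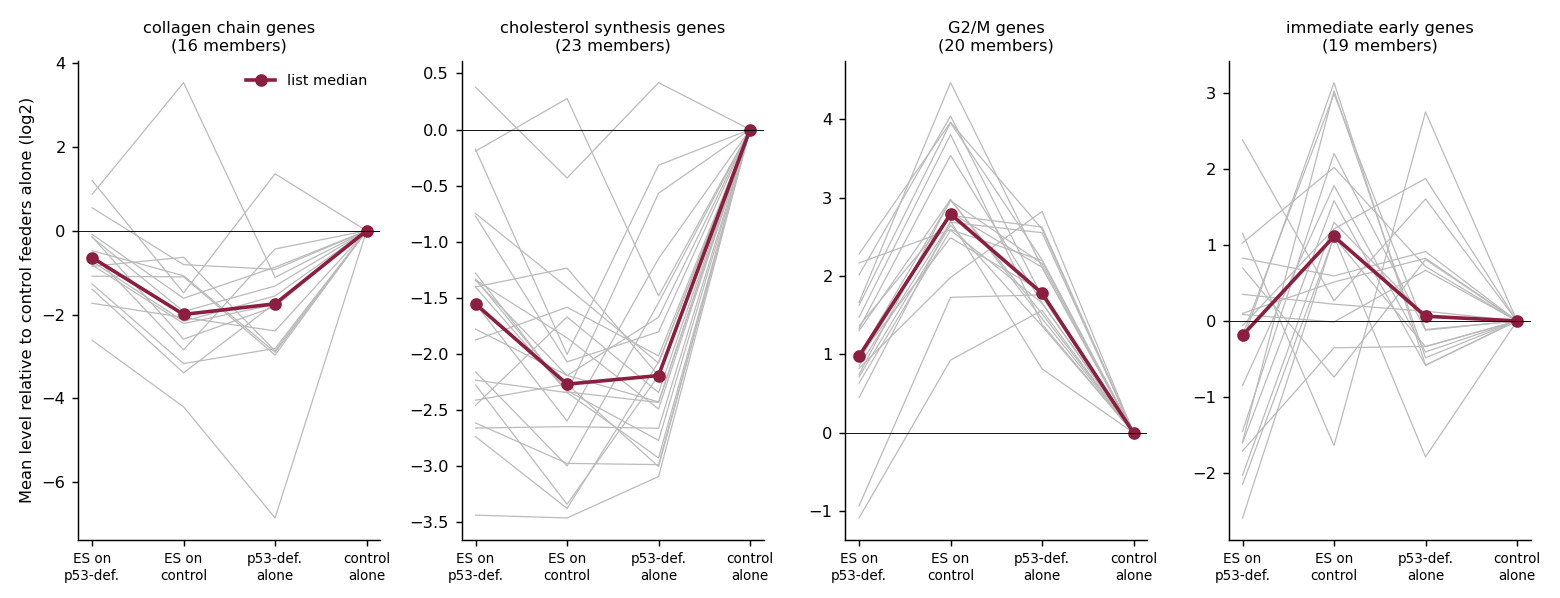
Group mean levels relative to control feeders alone (log2) for collagen chain, cholesterol synthesis, G2/M and immediate early genes, 1 grey line a gene and a thick line for the list median. With ES cells present the median line is higher on p53-defective than on control feeders for collagen and cholesterol synthesis genes and lower for G2/M and immediate early genes; without them the order is turned round for the first 3 lists and the fourth has a median feeder effect of 0.06.

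The p53 pathway itself was measured next. Trp53, which encodes p53, stood at 158, 160.2 and 141 CPM in the p53-defective co-cultures, against 289, 299.9 and 291 CPM in the control co-cultures. Without ES cells, Trp53 stood at 326, 317 and 244 CPM in p53-defective feeders alone, against 123, 124 and 112 CPM in control feeders alone. The transcript was thus higher in p53-defective than in control feeders and lower in p53-defective than in control co-cultures, with no overlap in either, and a co-culture effect of -0.94 ± 0.09, a feeder effect of 1.31 ± 0.09 and a difference of -2.25 ± 0.13 (adjusted p = 4.06e-13). Since the labels do not say how p53 was made defective, the level of its mRNA does not check them. The ES-gene scaling gave a difference of 0.03 for Trp53. Mdm2, the ubiquitin ligase that p53 induces and that removes p53, stood at 83, 77 and 85.9 CPM in the p53-defective co-cultures, against 618, 634 and 589 CPM in the control co-cultures. Without ES cells, Mdm2 stood at 176, 166 and 149.7 CPM in p53-defective feeders alone, against 433, 446 and 431 CPM in control feeders alone. Mdm2 was lower with the p53-defective label in both settings, by 2.90 ± 0.07 in co-culture and by 1.42 ± 0.07 in feeders alone, so the co-culture deficit was the larger one (difference -1.49 ± 0.10, adjusted p = 4.4e-12). Cdkn1a, the p21 inhibitor of cyclin kinases and a main p53 target, stood at 828, 889 and 788 CPM in the p53-defective co-cultures, against 929.9, 969 and 894 CPM in the control co-cultures. Without ES cells, Cdkn1a stood at 305, 290.4 and 186 CPM in p53-defective feeders alone, against 680.4, 649 and 663 CPM in control feeders alone. Replicate 3 of the p53-defective feeders was the lowest of its group. The feeder effect of Cdkn1a was -1.35 ± 0.12, the co-culture effect of -0.16 ± 0.11 was not called (adjusted p = 0.205), although the libraries did not overlap, and the difference was 1.19 ± 0.16. The difference of Mdm2 became 0.79 with the ES-gene scaling, and that of Cdkn1a -0.69 with the feeder-gene scaling.

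Of 33 p53 target genes, 7 were positive, 16 negative and 10 not called, with a median of -0.24 on the main scaling, -2.11 on the feeder-gene scaling and 2.04 on the ES-gene scaling, so no direction holds on every scaling. Their median was -1.0 in co-culture, where 25 were called lower, and -0.36 in feeders alone, where 17 were, against 46.7% of all genes tested in co-culture and 38.4% in feeders alone. Epha2, an ephrin receptor, Plk2, a stress-induced kinase, and Ckap2, a spindle protein, were negative on all 3 scalings, with differences of -3.74 ± 0.14, -3.17 ± 0.15 and -2.80 ± 0.10, and each was higher in p53-defective feeders alone and lower in the p53-defective co-cultures. Tigar, which limits glycolysis, differed by -2.36 ± 0.14, and its call was lost with the ES-gene scaling. Mdm4, the inhibitory partner of p53, stood at 23, 21.8 and 26 CPM in the p53-defective co-cultures, against 169, 154 and 184 CPM in the control co-cultures. Without ES cells, Mdm4 stood at 200.5, 210.2 and 243 CPM in p53-defective feeders alone, against 149, 152 and 153 CPM in control feeders alone. The p53-defective co-cultures were thus far below the other 3 groups, with a difference of -3.37 ± 0.16 that was negative on all 3 scalings. Of the 8 cell cycle inhibitors and p53 partners, 5 were positive and 3 negative, with a median of 0.80 on the main scaling, -1.06 on the feeder-gene scaling and 3.07 on the ES-gene scaling. The cyclin kinase inhibitors Cdkn1b and Cdkn2b were positive, at 1.76 ± 0.13 and 1.73 ± 0.13, and turned to -0.09 and -0.13 with the feeder-gene scaling.

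Immediate early genes, which growth factor signals switch on within minutes, had 12 of 19 called lower in the p53-defective co-cultures and 3 called higher, where 46.7% and 36.6% of all genes tested were. Of these 19 genes, 15 had a negative difference and 2 a positive one, with a median of -1.91 on the main scaling, -3.77 on the feeder-gene scaling and 0.37 on the ES-gene scaling, and 7 were negative on all 3 scalings. The co-culture effect had a median of -1.36 and the feeder effect 0.06. Egr1, a zinc finger factor, stood at 42.4, 44.9 and 47.5 CPM in the p53-defective co-cultures, against 1040.0, 1191 and 1071 CPM in the control co-cultures. Without ES cells, Egr1 stood at 105, 108 and 76.7 CPM in p53-defective feeders alone, against 131, 118 and 157 CPM in control feeders alone. The control co-cultures thus stood apart above all other groups, with a co-culture effect of -4.61 ± 0.13, a feeder effect of -0.49 ± 0.11 and a difference of -4.13 ± 0.16 (adjusted p = 8.39e-16). Dusp1, a phosphatase that ends MAP kinase signals, differed by -3.06 ± 0.13 with a feeder effect of -0.12 ± 0.09 that was not called. Zfp36, an mRNA decay factor, differed by -2.82 ± 0.12, and Dusp6, a feedback phosphatase of ERK, by -3.15 ± 0.13.

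Stress and inflammatory genes were divided. Atf3, a stress-induced transcription factor, stood at 14.6, 15.2 and 12.8 CPM in the p53-defective co-cultures, against 80.5, 103 and 73.7 CPM in the control co-cultures. Without ES cells, Atf3 stood at 202, 195 and 104 CPM in p53-defective feeders alone, against 43.1, 39.4 and 29.2 CPM in control feeders alone. Replicate 3 of the p53-defective feeders lay below the others of its group, yet above all libraries of control feeders, and Atf3 had a co-culture effect of -2.60 ± 0.23, a feeder effect of 2.17 ± 0.21 and a difference of -4.76 ± 0.32 (adjusted p = 4.4e-10). Ptgs2, the inducible cyclooxygenase that makes prostaglandins (NCBI gene 19225, chr1:150100031-150108234), stood at 55.4, 40.6 and 61.4 CPM in the p53-defective co-cultures, against 229.8, 232 and 198 CPM in the control co-cultures. Without ES cells, Ptgs2 stood at 409, 396 and 204 CPM in p53-defective feeders alone, against 56.6, 56.7 and 52.4 CPM in control feeders alone. Here too replicate 3 of p53-defective feeders was the lowest of its group. Ptgs2 ran opposite to Igfbp3 and Cxcl12 in both settings, with a co-culture effect of -2.07 ± 0.21, a feeder effect of 2.61 ± 0.21 and a difference of -4.67 ± 0.29 (adjusted p = 2.29e-10). Lif, the cytokine that keeps mouse ES cells undifferentiated, stood at 16.1, 18.8 and 15 CPM in the p53-defective co-cultures, against 66, 57.6 and 60.9 CPM in the control co-cultures. Without ES cells, Lif stood at 31, 29.9 and 26.4 CPM in p53-defective feeders alone, against 16.2, 18.2 and 12.5 CPM in control feeders alone, and the difference of -2.78 ± 0.16 was negative on all 3 scalings. Of the 7 chemokine and inflammatory genes that met the rule, 4 were negative and 1, Cxcl12, positive, with a median of -0.87 on the main scaling, -2.72 on the feeder-gene scaling and 1.41 on the ES-gene scaling. Of 24 ATF4 stress and amino acid genes, 23 were called higher in p53-defective feeders alone, where 35.9% of all genes tested were. The difference was negative in 14 and positive in 7, with a median of -0.54 on the main scaling, -2.42 on the feeder-gene scaling and 1.73 on the ES-gene scaling. The amino acid transporter genes Slc7a1 and Slc7a5 differed by -2.89 ± 0.18 and -2.38 ± 0.16, and Asns, asparagine synthetase, by -1.63 ± 0.14, with a co-culture effect that was not called and a difference of 0.65 with the ES-gene scaling. Slc7a5 lost its call with the ES-gene scaling. Among 20 cytosolic heat shock genes 12 were negative and 3 positive, with a median of -0.88 on the main scaling, -2.74 on the feeder-gene scaling and 1.4 on the ES-gene scaling. Cryab, a small heat shock protein also found in muscle and stressed fibroblasts, stood at 359, 387 and 328 CPM in the p53-defective co-cultures, against 25.4, 23.9 and 23.7 CPM in the control co-cultures. Without ES cells, Cryab stood at 27.2, 31.2 and 33.8 CPM in p53-defective feeders alone, against 69.9, 68.4 and 75.8 CPM in control feeders alone, with a difference of 5.09 ± 0.12 that was positive on all 3 scalings. Hsp90aa1, the inducible HSP90, was negative, at -1.70 ± 0.14, and turned to 0.58 with the ES-gene scaling.

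The other lists had medians whose sign turned with the feeder-gene scaling. Of 20 endoplasmic reticulum chaperones, 14 were positive and 4 negative, with a median of 0.63 on the main scaling, -1.25 on the feeder-gene scaling and 2.91 on the ES-gene scaling. P4hb, which is both an oxidoreductase and a subunit of collagen hydroxylase, differed by 2.37 ± 0.09 on the main scaling and was the 1 positive on all 3. All 9 interferon response genes were called lower in p53-defective feeders alone, where 38.4% of all genes tested were. In co-culture 8 were called lower, where 46.7% of all genes tested were. The difference was positive in 7, against 38.8% of all genes tested. Its median was 0.84 on the main scaling, -1.03 on the feeder-gene scaling and 3.11 on the ES-gene scaling. Stat2 and Irf9, partners in the interferon-activated factor, were lower with the p53-defective label in both settings, and their differences of 1.52 ± 0.12 and 0.95 ± 0.11 mark a smaller deficit in co-culture. Bst2, an antiviral membrane protein, had 1.08 ± 0.14. With the feeder-gene scaling these became -0.34, -0.92 and -0.77. Of 8 antigen presentation genes, 6 were positive, with a median of 1.04 on the main scaling, -0.83 on the feeder-gene scaling and 3.32 on the ES-gene scaling, and Tapbp, which loads peptides on class I molecules, differed by 2.47 ± 0.13. TGF-beta pathway genes had 11 of 17 positive and 4 negative, with a median of 0.74 on the main scaling, -1.12 on the feeder-gene scaling and 3.01 on the ES-gene scaling. The ligand gene Tgfb1 and the receptor gene Tgfbr2 differed by 2.71 ± 0.12 and 2.63 ± 0.13, while the inhibitory Smad7 differed by -1.63 ± 0.13, which turned to 0.65 with the ES-gene scaling. WNT pathway genes had 9 of 12 positive and 2 negative, with a median of 1.23 on the main scaling, -0.64 on the feeder-gene scaling and 3.51 on the ES-gene scaling. The receptor gene Fzd2 differed by 3.98 ± 0.15 and the ligand gene Wnt9a by 3.09 ± 0.21. Of 28 ribosomal protein genes, 14 were positive and 2 negative, against 38.8% and 34.8% of all genes tested, and none was past 2-fold. Their median was 0.31 on the main scaling, -1.55 on the feeder-gene scaling and 2.59 on the ES-gene scaling. Counts of these genes are uncertain, since they have many processed pseudogenes. Of 28 oxidative phosphorylation genes, 13 were positive and 7 negative, against 38.8% and 34.8% of all genes tested. Their median was 0.23 on the main scaling, -1.64 on the feeder-gene scaling and 2.50 on the ES-gene scaling.

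**Figure D5:**
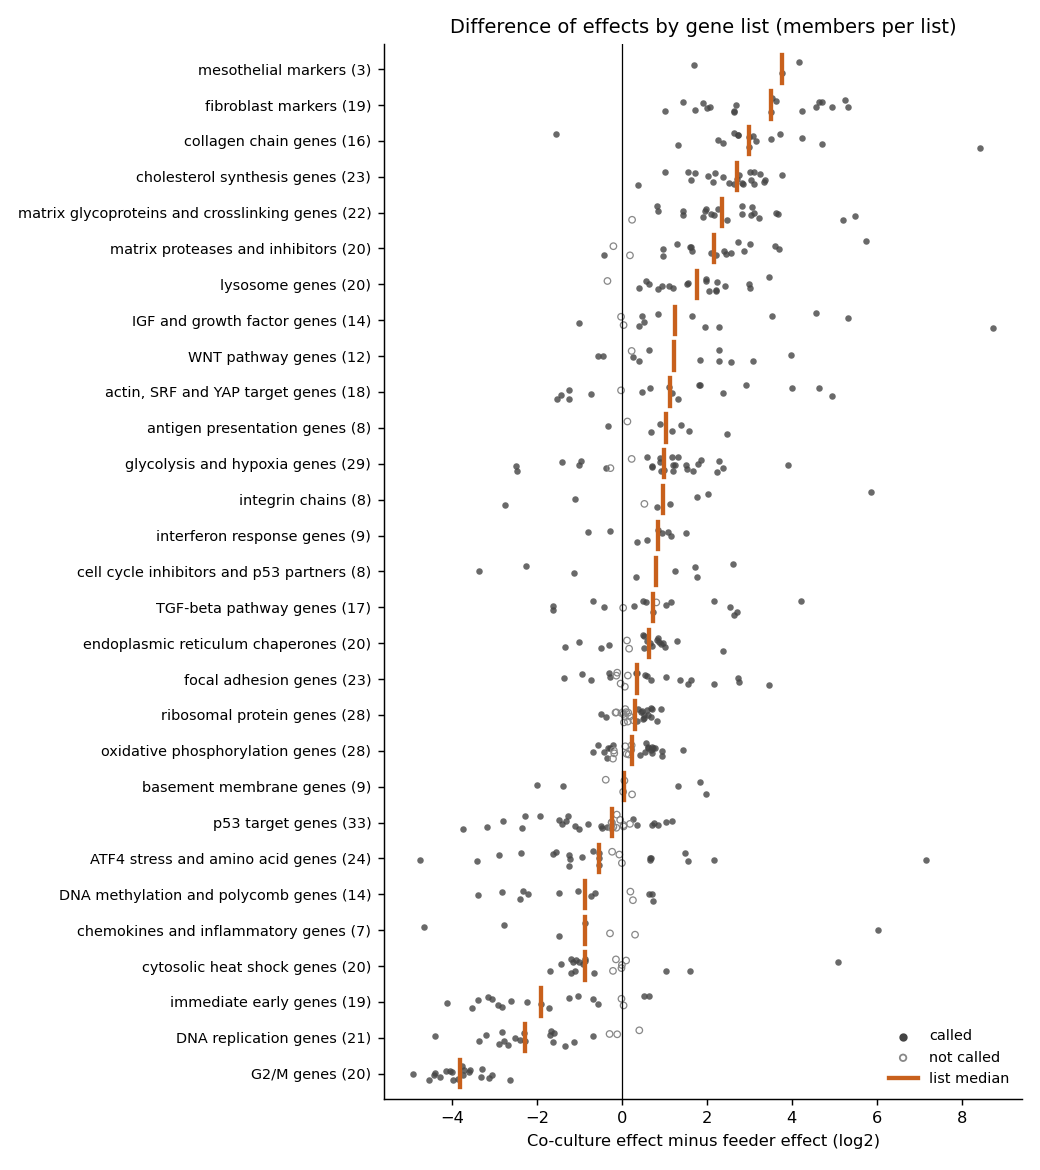
Difference (co-culture effect minus feeder effect, log2, main scaling) of each member of 29 gene lists, 1 point a gene, filled where called, with the list median as a bar. The lists run from G2/M genes at the bottom (median -3.82) to mesothelial and fibroblast markers at the top (3.77 and 3.5).

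Some levels in a co-culture lay outside those of feeders alone and of both groups of ES cells without feeders. No ES cells taken from p53-defective feeders were sampled, so that part of the p53-defective co-culture was not measured. The ES cells with feeders taken away came from control feeders, so the counts for the co-cultures below are not on equal terms. In the p53-defective co-cultures 595 of the 8603 genes (6.92%, against 7.71% of all genes tested) were at least 2-fold above p53-defective feeders alone and each ES group, with no overlap between libraries. Another 622 (7.23%, against 6.44%) were at least 2-fold below all of them. In the control co-cultures, set against control feeders alone and the same ES cells, 8 genes (0.093%, against 0.546%) were above and 0 (against 0.0325%) below. Igfbp3, Col12a1, Cxcl12, Itga7, Tpi1, Cd63 and Cryab were among those above in the p53-defective co-cultures, and St8sia4, Mcm10, Mdm4 and Tigar among those below. These counts are a description, and the share of each cell type in a co-culture was not measured.

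A few feeder-enriched genes went against their class. Slc43a3, a nucleobase transporter gene, stood at 129.6, 117 and 146 CPM in the p53-defective co-cultures, against 14.2, 15.2 and 14.2 CPM in the control co-cultures. Without ES cells, Slc43a3 stood at 302, 322 and 296 CPM in p53-defective feeders alone, against 16.6, 20.1 and 19.3 CPM in control feeders alone. It was higher with the p53-defective label in both settings, by 3.17 ± 0.09 and 4.04 ± 0.09, with the smaller effect in co-culture. Paqr3 showed the same order, with 1.17 ± 0.11 in co-culture and 2.45 ± 0.09 in feeders alone, and Fam171b differed by -2.02 ± 0.32. With the ES-gene scaling these differences became 1.42, 1.0 and 0.27. At the limit of the rule, Nat9, Eipr1 and Cers1 were just inside, with 10, 10.01 and 10.01 CPM in the lower feeder group, and Uqcc3, Aste1 and Acsf3 just outside, with 9.998, 9.998 and 9.997 CPM. The differences were 0.61, -0.62 and 2.39 for the genes inside and 1.42, -0.59 and -0.28 for those outside.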

How the data were processed

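Total RNA from Trizol extracts was made into libraries with the Illumina TruSeq mRNA kit, per the labels' protocols. The authors deposited 1 table of estimated counts per RefSeq transcript (75416 transcripts, 18 libraries). StringTie 1.3.3b, HISAT2 2.1.0, DESeq2 1.2.10 and SAMtools 1.4 are listed, per the submitters' processing notes, with the builds mm10 and GRCm38, without their roles, and whether counting used strand is not given in the sources used here, so overlapping, antisense and near-identical genes are uncertain. Counts were summed per gene (19630 genes, of which 89.3% of sums were whole within 0.05), rounded, filtered with edgeR's filterByExpr (15389 kept) and TMM-scaled. All 18 libraries were fitted with edgeR 4.0.16 in R 4.3.3 (quasi-likelihood, 1 coefficient per group), p-values were adjusted by Benjamini-Hochberg over all 15389 genes, and errors beside log2 values are SE, computed as the size of the log2 value divided by the square root of its F statistic. Levels are TMM-scaled CPM, counts divided by the scaled library total. DESeq2 1.42.0 and limma 3.58.1 served as alternatives. The fits were also run on simulated counts. There, a gene without a difference had a p53-defective co-culture level equal to the control co-culture level times the ratio of the feeders alone. RNA in a co-culture adds up over cell types instead, so the simulation cannot show that a called difference means a different effect of p53. Genes, lists and tests were chosen with earlier results of these data known. Named genes were Trp53, Mdm2, Cdkn1a, Fn1, Itga5, Itgb1 and Itgav, the 12 largest and 12 lowest differences, the 8 of each direction among feeder-enriched genes and among opposite-sign genes, and up to 4 with the smallest p per list, where described; others are said to be chosen after their values were seen. Promoter sequences and gene positions are from RefSeq on GRCm38.p6. Replicate numbers pair no libraries in the labels.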

Additional observations from a re-analysis of the deposited data

Results flagged for a closer look

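The difference between the 2 settings was itself tested for every gene, and the counts and genes below were singled out because it passed that test. The counts are 3761 positive and 3310 negative genes, 1994 and 1723 of them past 2-fold, and 2810 genes with effects called in opposite directions. Among the last, the 8 in each direction with the largest smaller effect are given with the difference (log2, positive where the co-culture effect is the higher one). Higher in the p53-defective co-cultures and lower in p53-defective feeders alone were Igfbp3 (8.75), Tmem119 (6.83), Ccdc80 (6.36), Pmp22 (5.78), Olfml3 (5.76), Adamts2 (5.75), Col1a2 (4.71) and S100a4 (4.56). Lower in the p53-defective co-cultures and higher in p53-defective feeders alone were Ccnb1 (-4.92), Atf3 (-4.76), Hmmr (-4.72), Ptgs2 (-4.67), Rif1 (-4.61), Bub1b (-4.54), Eml5 (-4.19) and Top2a (-4.14). The difference of all 16 kept its sign and its call on the main, the feeder-gene and the ES-gene scaling, while the opposite directions are those of the main scaling.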

How the results depend on the processing

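The counts and named differences were recomputed with DESeq2 size factors, library totals, no filter, a filter of 5 CPM, only the 12 libraries compared, limma-voom, DESeq2's Wald test, limits of 5 and 20 CPM for choosing genes, and without each library in turn. Under these the 5 counts stayed within 1.5 times, except that library totals gave 1308 positive genes at 2-fold or more. Leaving out 1 library at a time gave 3648 to 3894 positive and 3140 to 3391 negative genes, 1948 to 2102 and 1629 to 1783 at 2-fold or more, and 2593 to 2979 with opposite signs. With the replicate number as a block these were 3749, 3302, 1996, 1722 and 2798, and no named gene's call changed. Same-numbered libraries correlated at -0.0585 to 0.223 in their deviations. Differently numbered libraries were not compared in this way, so these values do not settle whether the numbers pair libraries. The choice of baseline genes had a far larger effect. Scaling on feeder-enriched genes gave 485 positive and 7477 negative genes, and 182 and 6312 at 2-fold or more. Scaling on ES-enriched genes, chosen after seeing the data, gave 8126 and 208, 7401 and 86 at 2-fold or more, and 5423 with opposite signs. With feeder-gene scaling the difference (log2) changed sign for Cdkn1a (-0.69), Itga5 (-0.74), Itgb1 (-0.10), Itgav (-1.05), Cdkn1b (-0.09), Cdkn2b (-0.13), Egln1 (-0.08), Stat2 (-0.34), Irf9 (-0.92), Bst2 (-0.77), Efemp1 (-1.61), Srebf2 (-1.48) and Ccne2 (-1.46), and the median for cell cycle inhibitors and p53 partners (-1.06), basement membrane genes (-1.81), integrin chains (-0.89), focal adhesion genes (-1.52), actin, SRF and YAP target genes (-0.73), glycolysis and hypoxia genes (-0.87), endoplasmic reticulum chaperones (-1.25), interferon response genes (-1.03), antigen presentation genes (-0.83), TGF-beta pathway genes (-1.12), IGF and growth factor genes (-0.62), WNT pathway genes (-0.64), ribosomal protein genes (-1.55), oxidative phosphorylation genes (-1.64) and lysosome genes (-0.11). With ES-gene scaling it changed sign for Trp53 (0.03), Mdm2 (0.79), Lama5 (0.29), Asns (0.65), Ajuba (0.83), Hsp90aa1 (0.58), Smad7 (0.65), Slc43a3 (1.42), Paqr3 (1.0), Fam171b (0.27), Col18a1 (0.74), Sqstm1 (1.94), Rfc3 (1.99) and Rrm1 (2.17), and the median for p53 target genes (2.04), DNA replication genes (0.01), ATF4 stress and amino acid genes (1.73), cytosolic heat shock genes (1.4), chemokines and inflammatory genes (1.41), immediate early genes (0.37) and DNA methylation and polycomb genes (1.41). Calls were lost without a change of sign by Fn1 (0.24) with feeder-gene scaling, and by Tigar (-0.08), Slc7a5 (-0.10), Dnmt1 (-0.03), Hk2 (-0.20) and Slc2a3 (-0.18) with ES-gene scaling. With library totals the difference changed sign for Srebf2 (-0.02), which lost its call, and for Efemp1 (-0.17), not called in either fit, while Sqstm1 (-0.75), Rfc3 (-0.70) and Rrm1 (-0.53) gained a call; the sign also changed for the median for basement membrane genes (-0.35), focal adhesion genes (-0.06), ribosomal protein genes (-0.10) and oxidative phosphorylation genes (-0.19). Over the fits without 1 library the median of basement membrane genes ran from -0.13 to 0.25, at -0.13 without replicate 3 of the p53-defective co-cultures and -0.01 without replicate 3 of control feeders. No named gene that was called lost its call without any 1 library, while Ccne2, Rfc3, Efemp1 and Sqstm1, not called as reported, gained one in 1 to 3 of these 12 fits. The causes were not tested. Few cells or low RNA per cell cannot be told apart, and the share of each cell type was not measured.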
